A study of Mus musculus with 6 samples.

Results

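The 75 genes described here are interferon-stimulated effector genes, the genes that interferon switches on to block viruses and other intracellular microbes. They were chosen by symbol alone, 54 by the start of a family name (such as Ifit, Oas, Gbp or Slfn) and 21 named singly, and they make up 75 of the 11031 rows of the deposited expression table. The series compared RAW264.7 cells given RANKL, the cytokine that drives macrophages to become osteoclasts, with untreated RAW264.7 cells. It holds 3 RANKL samples and 3 Ctrl samples, all collected at day 3 from the same line, and the labels give no further allele, agent or time. RAW264.7 is a transformed mouse macrophage line that fuses into bone-resorbing osteoclasts on RANKL, so both groups come from a single line, and RANKL cultures of this kind usually still hold unfused cells. Of the defining markers, all 8 of macrophages (deposited mean level 3.89 to 12.37 on the log2 scale of FPKM) and all 7 of osteoclasts (0.45 to 6.74) were in the table. Of 5 markers of fibroblasts and osteoblasts 1 was in it, Pdgfrb at 0.30, and of 3 of plasmacytoid dendritic cells 2 were, Tcf4 at 3.54 and Bst2, which is itself among the 75 genes. The 4 T cell, 3 B cell, 2 NK cell and 3 neutrophil markers were not analysed here.

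No difference between RANKL and Ctrl cells is given for any gene. The 12 columns of values per library carry letters that match no sample label, so none of them could be assigned to a group. The columns of the authors' own comparison hold their results rather than measurements and were not used. Values per sample, depth per sample, the spread between replicates and tests of the RANKL effect are therefore not given. The measurement used is the mean level of each gene, as deposited by the authors on a log scale of FPKM (fragments scaled to transcript length and to library depth). It is 1 value per gene, with no SD and no n, and the libraries that enter it are not stated. The values were read as log2, and a constant added before the logarithm is not stated either. In bulk RNA of this kind, fewer cells expressing a gene and less RNA per cell cannot be told apart.

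Type I and type II interferons bind paired receptors at the cell surface, and JAK kinases on those receptors activate the transcription factors of the pathway. A complex that includes STAT2 and IRF9 binds the interferon-stimulated response element, a DNA motif built on paired GAAA blocks. The gamma-activated site, a palindrome of TTC and GAA, is the element through which type II interferon acts directly. Macrophages keep many of these genes at a low tonic level, and osteoclast precursors are a known setting of this pathway, because RANKL induces interferon beta and interferon beta restrains osteoclast formation. The effectors themselves sense foreign RNA and DNA, tag proteins with ISG15, degrade RNA, stop translation, or change membranes so that viruses cannot enter or leave.

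The promoters of the genes were examined first, because their sequence does not depend on the expression values. The rule used names only, but the names are those of known interferon-stimulated genes. The interferon-stimulated response element is the motif bound by the complex that interferon activates. An excess of it in such a list was therefore foreseeable, and the shares below are a description with no test. RefSeq promoter windows on GRCm38.p6, running from 250 bases before to 50 bases after each annotated start, were found for 60 of the 75 genes. The interferon-stimulated response element was searched as GAAANNGAAA on both strands at any position, where N is any base, and overlapping matches were counted. It was present in 31 of the 60 genes (51.7%), against 309 of the 8737 other genes of the table with a promoter window (3.54%) and 3.99% of all RefSeq genes. The 95% Wilson intervals were 39.3% to 63.8% for the interferon-stimulated genes and 3.17% to 3.94% for the other genes of the table. These intervals treat genes as independent, whereas relatives within a family share promoter sequence, and a match is a stretch of letters and not a measured binding site.

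A stricter spelling chosen after seeing the data, GAAANNGAAACT, was present in 19 of the 60 genes (31.7%), against 22 of 8737 other genes (0.252%). The gamma-activated site, TTCNNNGAA, was present in 11 of 60 (18.3%, Wilson interval 10.6% to 29.9%), against 8.14% of the other genes. The separation from the rest of the table was wider for the paired GAAA blocks than for the gamma-activated site. These separations are not like measures, since the gamma-activated site fixes fewer letters and so matches more often in any sequence.

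**Figure D1:**
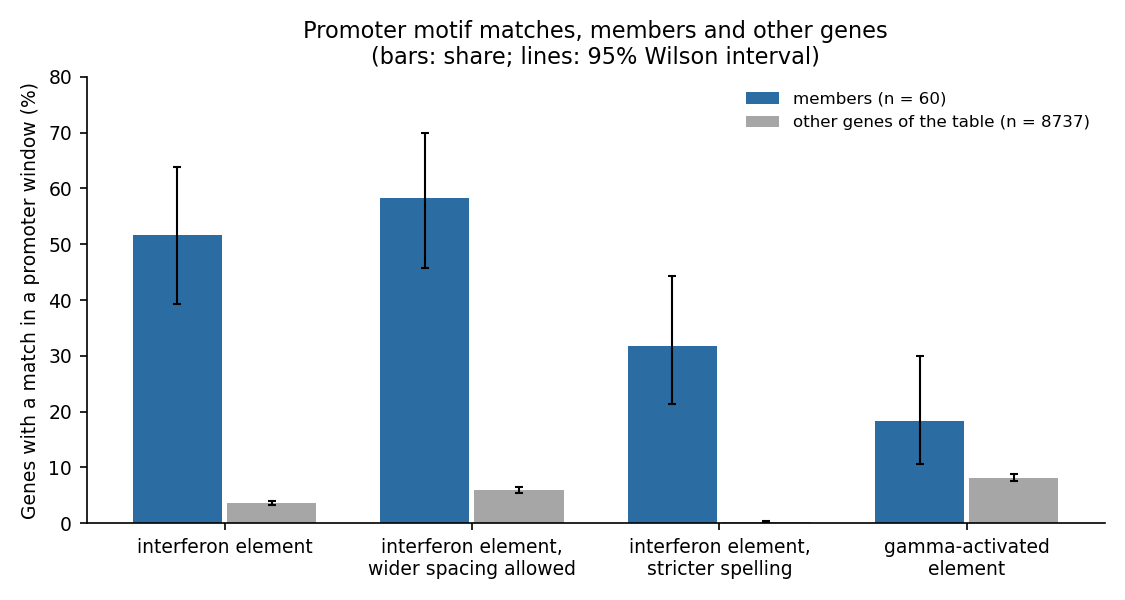
Share of genes with a motif match in a promoter window, in percent, for the 60 interferon-stimulated genes (blue) and the 8737 other genes of the table (grey), with 95% Wilson intervals as lines. The interferon element was found in 51.7% of the interferon-stimulated genes and 3.54% of the others, the element with a wider spacing of 2 or 3 bases in 58.3% and 5.91%, the stricter spelling in 31.7% and 0.252%, and the gamma-activated element in 18.3% and 8.14%.

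Stretches of 50 bases around the match are printed for genes that show how the blocks are arranged, 5′ to 3′ on the gene's own strand, with GRCm38.p6 coordinates and with the 10 matched bases in capitals. A match on the opposite strand reads as TTTC blocks. Isg15, Ifit1 and Ifit3 are shown because they are standard readouts of interferon signalling.
Isg15, chr4:156200861-156200910, minus strand: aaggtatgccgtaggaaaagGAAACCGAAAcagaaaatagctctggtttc
Ifit1, chr19:34640784-34640833, plus strand: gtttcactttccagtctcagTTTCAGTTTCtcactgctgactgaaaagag
Ifit3, chr19:34583353-34583402, plus strand: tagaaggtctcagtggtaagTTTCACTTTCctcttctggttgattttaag
In Isg15, 3 overlapping matches began 78, 72 and 66 bases before the start, so that 4 blocks followed each other at the same spacing. Ifit1 had matches beginning 104 and 85 bases before the start and Ifit3 had matches 156 and 122 bases before it, all on the opposite strand.

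The guanylate-binding protein genes Gbp2, Gbp3 and Gbp7 and the immunity-related GTPase gene Irgm1 are shown because the GTPases had the lowest median level of any role group and 5 of the 6 with a promoter window carried the motif.
Gbp2, chr3:142620584-142620633, plus strand: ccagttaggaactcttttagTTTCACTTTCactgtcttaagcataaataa
Gbp3, chr3:142559979-142560028, plus strand: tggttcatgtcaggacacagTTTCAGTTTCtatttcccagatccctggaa
Gbp7, chr3:142530263-142530312, plus strand: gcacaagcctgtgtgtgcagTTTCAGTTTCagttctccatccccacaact
Irgm1, chr11:48871415-48871464, minus strand: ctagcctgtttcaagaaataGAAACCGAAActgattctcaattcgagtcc
All 3 Gbp genes carried the stricter spelling on the opposite strand, within 60 bases before the start. Outside the matched bases, Gbp3 and Gbp7 were not near copies of each other in this stretch, with 12 of 40 positions identical when aligned on the motif.

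Pairs of close relatives are shown because their promoters could be compared with their levels.
Oas1a, chr5:120907516-120907565, minus strand: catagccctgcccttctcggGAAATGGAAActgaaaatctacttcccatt
Oas1g, chr5:120887602-120887651, minus strand: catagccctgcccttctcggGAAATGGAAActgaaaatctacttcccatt
Apol9a, chr15:77411104-77411153, minus strand: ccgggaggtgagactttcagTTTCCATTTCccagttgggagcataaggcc
Apol9b, chr15:77729021-77729070, plus strand: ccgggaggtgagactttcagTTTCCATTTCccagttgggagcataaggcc
Phf11a, chr14:59297522-59297571, minus strand: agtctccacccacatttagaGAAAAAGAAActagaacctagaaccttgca
Phf11b, chr14:59341351-59341400, minus strand: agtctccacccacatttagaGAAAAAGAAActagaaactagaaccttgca
Slfn8, chr11:83020829-83020878, minus strand: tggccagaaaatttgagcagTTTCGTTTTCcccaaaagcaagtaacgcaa
Slfn9, chr11:82991846-82991895, minus strand: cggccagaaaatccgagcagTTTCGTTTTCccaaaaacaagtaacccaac
The stretches of Oas1a and Oas1g were identical at 50 of 50 positions, as were those of Apol9a and Apol9b, and those of Phf11a and Phf11b at 49 of 50. Those of Slfn8 and Slfn9 were identical at 37 of 50, and at 27 of the 40 positions outside the matched bases. The deposited mean levels of these relatives were 5.33 for Oas1a and 4.86 for Oas1g, 2.08 for Apol9a and 1.24 for Apol9b, 0.73 for Phf11a and 2.95 for Phf11b, and 1.90 for Slfn8 and 2.38 for Slfn9. In the OAS and APOL9 pairs, identical stretches of 50 bases thus stood beside unequal levels. The rest of the windows was not compared, and the printed match of Oas1a began 20 bases before its start and that of Oas1g 18 bases before its own. The positions differed more in the APOL9 pair, where the printed match began 53 bases before the start of Apol9a and 31 bases before that of Apol9b. Close relatives also share transcript sequence, which bears on how their reads were divided.

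The PYHIN genes are shown because 4 neighbouring relatives carried the motif once each.
Ifi203, chr1:173942498-173942547, minus strand: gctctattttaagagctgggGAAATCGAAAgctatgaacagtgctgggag
Ifi207, chr1:173741821-173741870, minus strand: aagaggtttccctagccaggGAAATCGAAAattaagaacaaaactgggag
Ifi211, chr1:173913054-173913103, minus strand: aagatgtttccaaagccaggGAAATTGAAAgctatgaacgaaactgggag
Ifi213, chr1:173599316-173599365, minus strand: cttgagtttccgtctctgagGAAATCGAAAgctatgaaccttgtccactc
The closest pair was Ifi207 and Ifi211, identical at 42 of 50 positions, and the most distant pair was Ifi207 and Ifi213, at 25 of 50. The alignment on the motif makes part of this identity certain. Outside the matched bases, these pairs were identical at 33 and 15 of 40 positions. None of the 4 carried the stricter spelling. Bst2 and Ddx60 are shown as genes from opposite ends of the range of levels that both carried the stricter spelling.
Bst2, chr8:71537573-71537622, minus strand: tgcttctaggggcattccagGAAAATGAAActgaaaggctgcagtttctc
Ddx60, chr8:61928014-61928063, plus strand: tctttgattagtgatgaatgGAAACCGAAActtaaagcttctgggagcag
Bst2, with a deposited mean level of 6.45, had matches beginning 130 and 124 bases before the start. Ddx60, with a level of 0.87, had matches 53 and 19 bases before it.

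Across the 31 genes there were 45 matches, 40 of them beginning before the annotated start and 31 within the 100 bases before it. The median match began 48 bases before the start. On the gene's own strand lay 27 of the 45 matches, and 13 genes had at least 2. The 5 matches after the start were in Ifitm3 (2 matches, 2 and 19 bases after it), Rigi (2 bases), Eif2ak2 (18 bases) and Ifih1 (32 bases). Of the 69 windows of the 60 genes, 54 ended in 50 bases that were found in a GENCODE M21 transcript of the same gene.

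**Figure D2:**
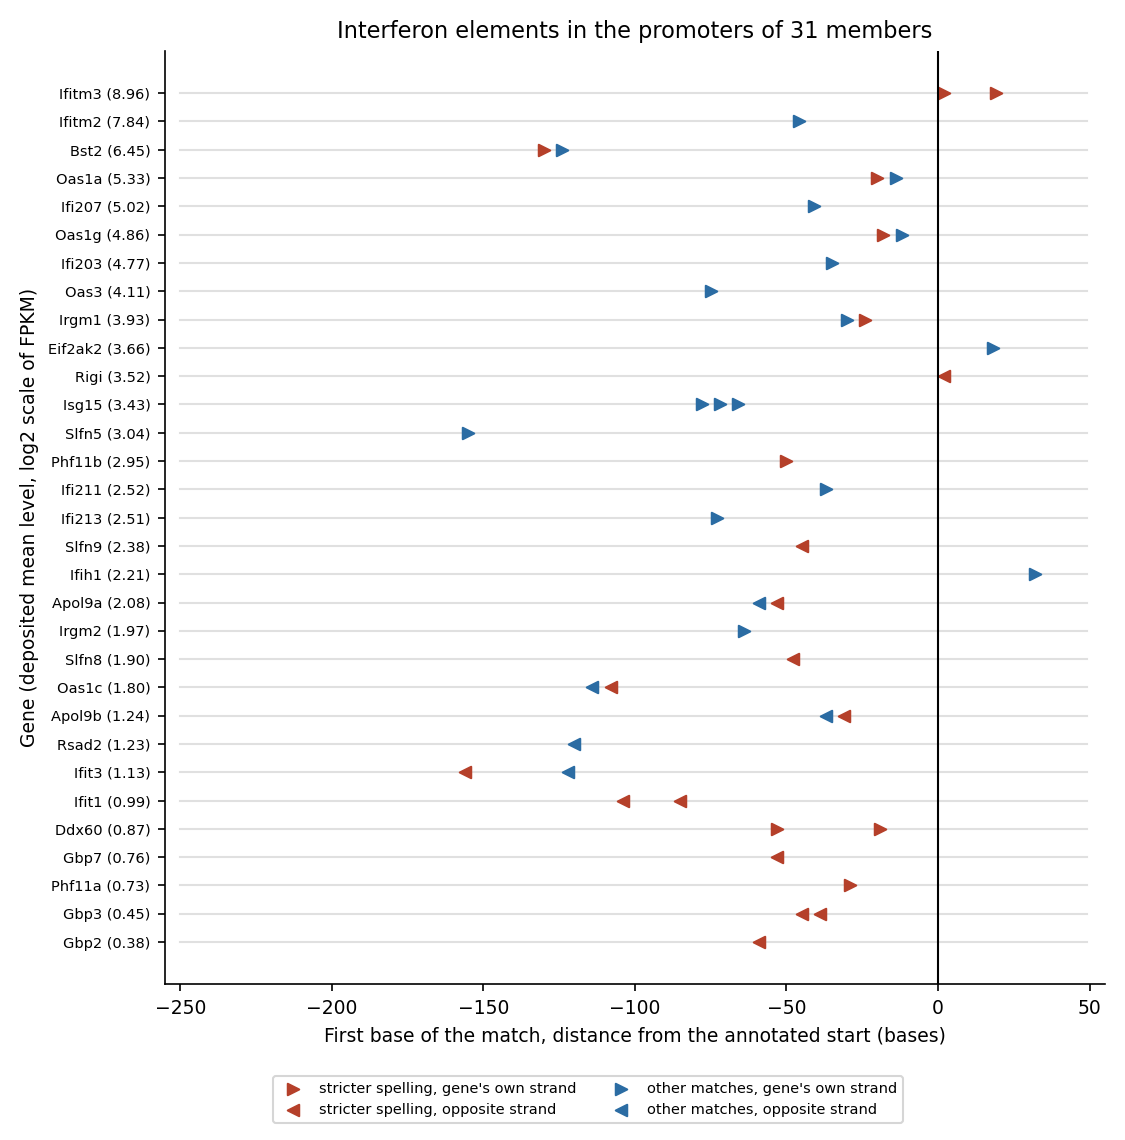
Position of each of the 45 interferon elements in 31 genes, as the distance in bases of its first base from the annotated start (black line), with genes ordered by deposited mean level on the log2 scale of FPKM. Triangles point right for the gene's own strand and left for the opposite strand, and red marks the stricter spelling. Most matches sit in the 100 bases before the start, and the genes at the bottom of the range are nearly all red.

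The levels of the genes were spread about as widely between their quartiles as those of the other rows. The median deposited mean level of the genes was 2.95 (quartiles 1.73 and 4.17), against 3.61 (quartiles 2.39 and 4.80) for the 10956 other rows, and 2.95 was the 35.4th percentile of all rows. A 95% interval for the median, which treats the genes as independent, ran between 2.24 and 3.64 and so reached past the median of all rows, 3.60. Above the median of the table were 29 of the 75 genes (38.7%), against 50.1% of the other rows. At the ends, 12.0% of the genes (9 genes) were under 1 and 13.3% (10 genes) over 6, against 7.82% and 10.2% of the other rows. These counts are small and not far from the shares of the other rows. The full range of the genes, 0.38 to 8.96, was narrower than that of the other rows, 0.02 to 13.40. The lowest 10% of the table held 12 of the genes and the highest 10% held 10. These are descriptions of a list chosen by name, with no test.

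The 10 highest genes were Ifitm3 (8.96), Ifitm2 (7.84), Ifi27 (6.60), Ifi202b (6.49), Bst2 (6.45), Slfn2 (6.43), Lgals3bp (6.35), Slfn4 (6.29), Ifitm6 (6.27) and Ifi27l2a (6.24). The 10 lowest were Gbp2 (0.38), Mx1 (0.40), Gbp3 (0.45), Oas1h (0.50), Ifi209 (0.54), Phf11a (0.73), Gbp7 (0.76), Ddx60 (0.87), Ifit1 (0.99) and Gbp9 (1.02). Membrane restriction proteins, the small hydrophobic IFI27 proteins and Schlafen proteins filled most of the upper end, whereas GTPases made up 5 of the 10 lowest.

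**Figure D3:**
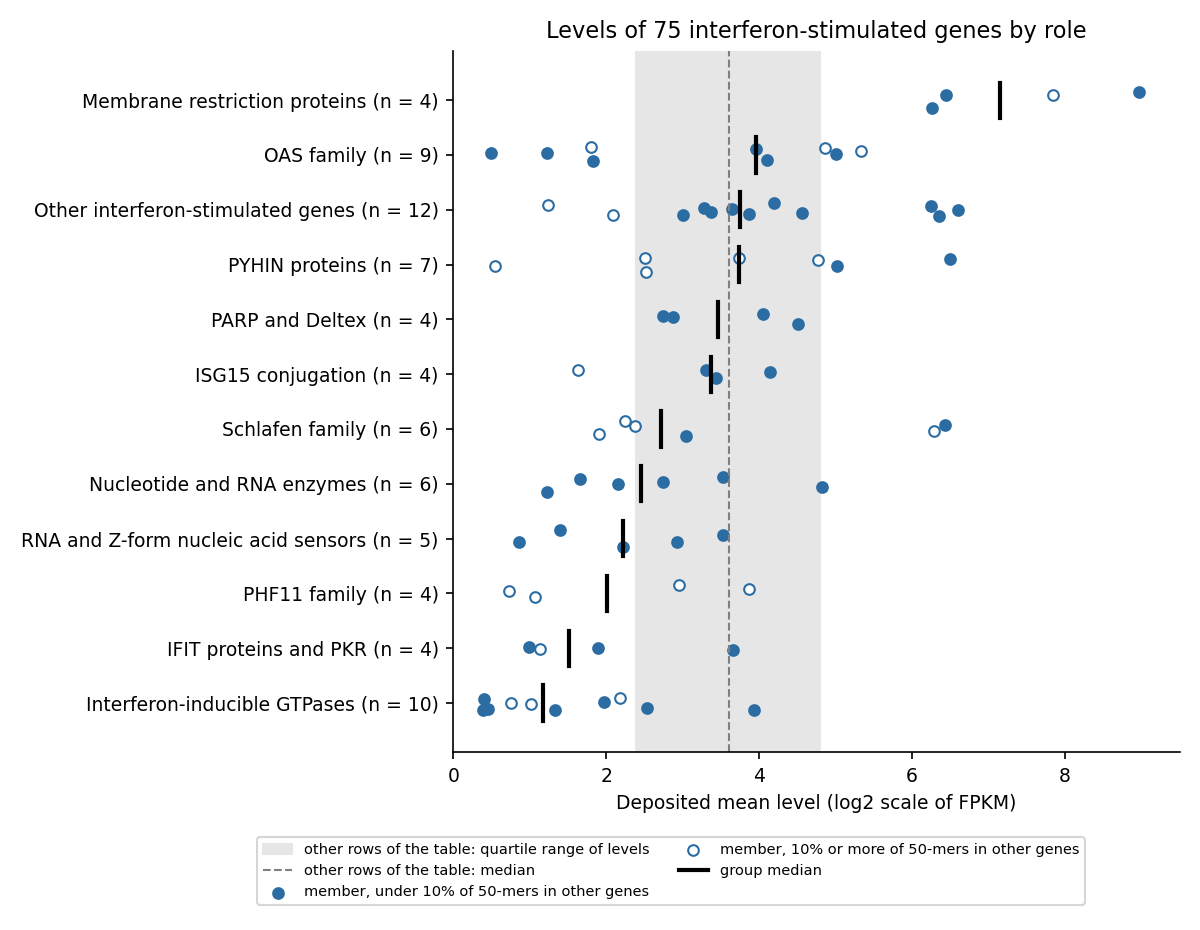
Deposited mean level (log2 scale of FPKM) of each of the 75 genes, by role group, with the group median as a black bar and the median and quartile range of the other rows in grey. Open circles mark genes that share at least 10% of their 50-base stretches with other genes. Membrane restriction proteins (6.27 to 8.96) lie above the grey band and most interferon-inducible GTPases lie below it.

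The 5 genes grouped as sensors of RNA and Z-form nucleic acid were all below the median of the table. Rigi, which encodes RIG-I and recognises short RNA with a triphosphate end, had a level of 3.52. Dhx58, encoding LGP2, a regulator of RIG-I-like receptors, stood at 2.92, and Ifih1, encoding MDA5, which recognises long double-stranded RNA, at 2.21. Zbp1, a sensor of Z-form RNA and DNA that can start necroptosis, stood at 1.40. Ddx60, a helicase linked to RIG-I signalling, was lowest at 0.87. All 3 of the sensors with a promoter window, Rigi, Ifih1 and Ddx60, carried the interferon element.

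The PYHIN proteins, many of which bind DNA through a HIN domain, formed a cluster on chromosome 1 (chr1:173566283-173982744, GRCm38) with levels 5.95 apart on the log2 scale between its highest and lowest member. Ifi202b, which encodes a protein known to antagonise AIM2, was highest at 6.49. Ifi207 had 5.02, Ifi203 had 4.77 and Ifi204 had 3.74. Ifi211 and Ifi213 were level with each other at 2.52 and 2.51, and Ifi209 had 0.54. The interferon element was present in 4 of the 6 genes with a promoter window and was not found in the windows of Ifi202b and Ifi209, the highest and the lowest of the family.

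Of the 4 genes of the ISG15 pathway, 1 was above the median of the table. Isg15, a ubiquitin-like protein joined to target proteins, had a level of 3.43. Uba7, its activating enzyme, stood at 3.30, and Usp18, the protease that removes ISG15 and also holds back the type I interferon receptor, at 4.14. Herc6, the main ISG15 ligase of mice, was lowest at 1.64.

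Active oligoadenylate synthetases make a short RNA messenger that activates RNase L. Which of the 9 OAS genes encode an active enzyme was not examined. Of these 9 genes, 5 were above the median of the table. The highest were Oas1a (5.33), Oasl1 (5.00), Oas1g (4.86), Oas3 (4.11) and Oas2 (3.95). Oasl1, which is known in mice to limit translation of Irf7, thus stood far above its neighbour Oasl2 (1.83). Oas1c (1.80), Oas1b (1.23) and Oas1h (0.50) were the lowest. In this family 7 genes lie together on chromosome 5 (chr5:120730333-120907521), where the levels spanned 4.83 on the log2 scale.

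The IFIT proteins bind viral RNA ends and block their translation, and all 3 were low: Ifit2 had 1.89, Ifit3 had 1.13 and Ifit1 had 0.99. They are neighbours on chromosome 19 (chr19:34550694-34650009). The translation-blocking kinase PKR, encoded by Eif2ak2, was higher, at 3.66. The interferon element was found in Ifit1, Ifit3 and Eif2ak2 and was not found in the window of Ifit2.

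The membrane restriction proteins were the highest role group, with a median of 7.14 and all 4 genes in the highest 10% of the table. Ifitm3 and Ifitm2, which hinder viral fusion in endosomes, had 8.96 and 7.84, and their relative Ifitm6 had 6.27. These 3 genes lie together on chromosome 7 (chr7:140954837-141017924). Bst2, encoding tetherin, which holds budding virus particles at the cell surface, had 6.45. The element was found in 3 of these 4 genes and was not found in Ifitm6.

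The interferon-inducible GTPases were the lowest role group, with a median of 1.17 over 10 genes. Guanylate-binding proteins, which coat and break open the vacuoles of intracellular bacteria and parasites, had levels of 2.18 for Gbp8, 1.02 for Gbp9, 0.76 for Gbp7, 0.45 for Gbp3 and 0.38 for Gbp2. Gbp2, Gbp3 and Gbp7 are neighbours on chromosome 3 (chr3:142530342-142638008). They lay within 0.37 of each other on the log2 scale, all in the lowest 10% of the table. The dynamin-like antiviral GTPases were also low, with 0.40 for Mx1 and 1.33 for Mx2. Mx1 and its neighbour Mx2 carry known inactivating mutations in many laboratory mouse strains, and GENCODE lists Mx2 as a polymorphic pseudogene, as it does Oas1b. The immunity-related GTPases were higher, with 3.93 for Irgm1, 2.53 for Ifi47 and 1.97 for Irgm2. Irgm1, a regulator of the other immunity-related GTPases and of autophagy, was the only gene of the group above the median of the table. The interferon element was present in 5 of the 6 genes of the group with a promoter window, the exception being Ifi47.

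Enzymes acting on nucleotides and RNA had a median of 2.45. Rsad2, encoding viperin, which makes a chain-terminating nucleotide, had 1.23, and its neighbour Cmpk2, a mitochondrial nucleotide kinase, had 2.16. Isg20, an exonuclease that degrades viral RNA, had 1.66, Helz2 had 2.75, and Znfx1, a helicase-like sensor of viral RNA, had 3.52. Isg20l2, which entered through its name and is known in human cells as a nucleolar exonuclease of ribosomal RNA processing, was the highest at 4.82. Rsad2 was the only one of the 6 with the element.

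The PARP and Deltex genes encode ADP-ribosyltransferases and their partner ubiquitin ligase. Parp12 had 4.50, Parp9 had 4.05, Dtx3l, the ligase that pairs with PARP9, had 2.87, and Parp14 had 2.75. No match was found in the windows of Parp12 and Dtx3l.

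Among the Schlafen genes, which are linked to growth arrest in mice and to cleavage of transfer RNA in human cells, Slfn2 (6.43) and Slfn4 (6.29) stood far above Slfn5 (3.04), Slfn9 (2.38), Slfn3 (2.24) and Slfn8 (1.90). All 6 lie together on chromosome 11 (chr11:82951349-83215154). Slfn2, which is known in mice to keep T cells and monocytes quiescent, and Slfn4 had no match in their windows, and neither had Slfn3. Slfn5, Slfn8 and Slfn9 did. The 4 PHF11 genes, with PHD-type zinc-binding domains, had levels of 3.87 for Phf11d, 2.95 for Phf11b, 1.07 for Phf11c and 0.73 for Phf11a, and the element was found in Phf11a and Phf11b.

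Of the 12 remaining genes, 7 were above the median of the table. Ifi27 (6.60) and Ifi27l2a (6.24), neighbours on chromosome 12 that encode small hydrophobic proteins, and Lgals3bp (6.35), a secreted glycoprotein that binds galectins, led the group. Ifi44 had 4.56 and its neighbour Ifi44l had 3.38. Ifi35 had 4.19, Rtp4 had 3.87, Samd9l, a translation-inhibiting restriction factor, had 3.64, Epsti1 had 3.28 and Xaf1, a promoter of apoptosis, had 3.00. Apol9a had 2.08 and Apol9b had 1.24. The 2 Apol9 genes were the only ones of the 9 with a promoter window that carried the element. With a spacing of 2 or 3 bases, Lgals3bp, Ifi44 and Samd9l matched as well, as did Phf11d of the PHF11 genes. Sequence outside the windows was not searched, so a gene with no match here may have an element elsewhere.

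Promoter letters and levels were set side by side. The 31 genes with the element had a median level of 2.51 (range 0.38 to 8.96), against 3.30 (range 0.50 to 6.49) for the 29 genes without it. For the stricter spelling, which was chosen after seeing the data, the medians were 1.90 for 19 genes with it and 3.30 for 41 without it. Of the 10 lowest genes, 8 had a promoter window and 6 of these carried the stricter spelling, among them the neighbours Gbp2, Gbp3 and Gbp7. Of the 10 highest, 8 had a window, 3 carried the element and 2 the stricter spelling. The ranges overlapped almost fully, since Ifitm3, the highest gene, also carried the stricter spelling. For the gamma-activated site the order was the other way, with a median of 4.19 for the 11 genes with it (Ifitm3, Ifi202b, Bst2, Ifitm6, Oas1a, Ifi35, Eif2ak2, Irgm2, Ifit2, Isg20 and Gbp7), against 2.87 for the 49 without it. The genes were also split at the median of the table. The stricter spelling was in 14 of 38 genes at or below it (Wilson interval 23.4% to 52.7%) and 5 of 22 above it (10.1% to 43.4%). The interferon element was in 55.3% (39.7% to 69.9%) and 45.5% (26.9% to 65.3%). The intervals overlapped for both spellings. Among the other rows of the table, the interferon element was found in 3.70% of those at or below the median level and 3.37% of those above it. The stricter spelling was found in 0.349% of the other rows at or below the median level (15 of 4292) and in 0.157% of those above it (7 of 4455). The Wilson intervals, 0.212% to 0.576% and 0.0761% to 0.324%, overlapped.

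Near-identical relatives limit these levels. Each gene's transcripts were broken into stretches of 50 bases, and the share found exactly in transcripts of other genes was counted. It was at least 10% for 24 of the 75 genes, at least 50% for 4 and 0 for 24. The 4 were Ifi211 (73.0%, most with Ifi205), Oas1a (57.6%, with Oas1g), Apol9b (52.4%, with Apol9a) and Ifit3 (51.5%, with Ifit3b). Oas1g (48.5%), Ifitm2 (48.4%), Phf11b (47.6%), Ifi209 (36.4%), Phf11a (35.2%) and Ifi204 (25.4%) were next. How the authors' counting treated reads that match several genes is not given in the sources used here, so the levels of these genes are uncertain. The 51 genes below 10% had a median level of 3.38.

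Other genes of the pathway, from a list outside the 75, had group medians between 3.63 for sensors and adaptors and 4.82 for receptors. Both subunits of each receptor were present, with levels of 5.71 for Ifnar2, 4.82 for Ifnar1, 4.81 for Ifngr2 and 4.79 for Ifngr1. The 5 kinases were between 3.29 (Jak2) and 5.18 (Jak1). Of 5 transcription factors, Irf7 had 4.49, Irf3 4.11, Irf9 4.04, Irf1 3.41 and Stat2 2.62, so that Stat2 was the lowest of these 5. The 7 sensors and adaptors ran between 1.67 (Tlr9) and 5.66 (Trim25), with 3.90 for Mavs, the adaptor of RIG-I and MDA5. Negative regulators included Ptpn6 (7.37), Adar (4.53), Trim30a (3.68) and Socs3 (3.17). The interferons Ifnb1 and Ifna4 and the inhibitor Socs1 were not analysed here. Of this list, Stat2 and Trim30a carried the interferon element, and Trim30a carried the stricter spelling.

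**Figure D4:**
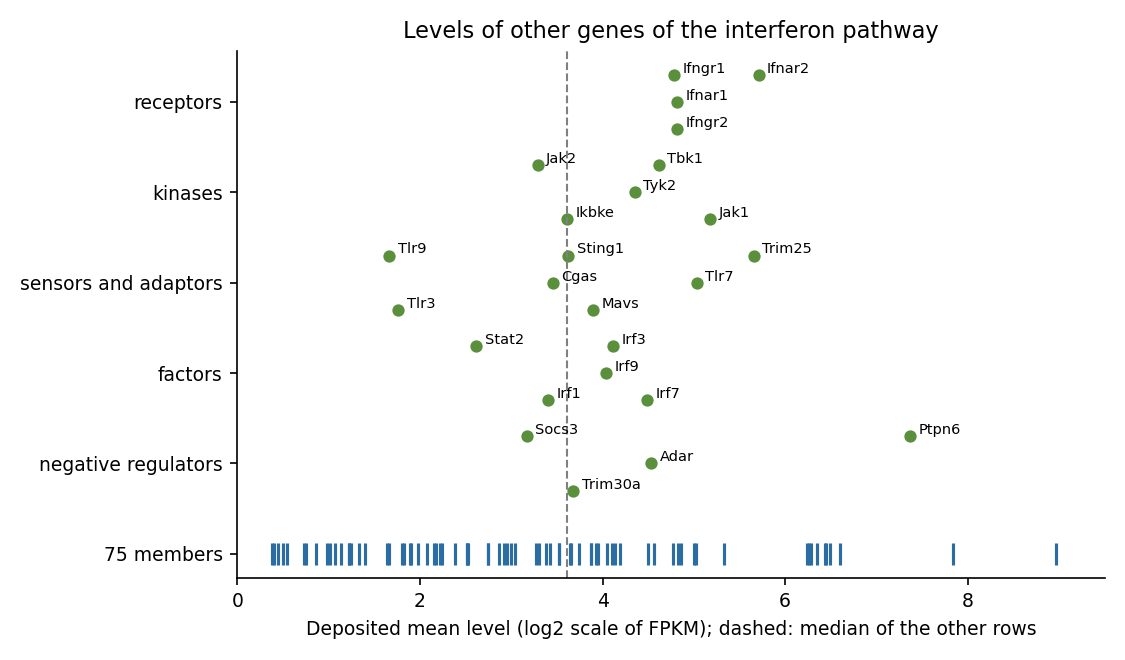
Deposited mean level (log2 scale of FPKM) of the other genes of the interferon pathway, by role, with the 75 interferon-stimulated genes as ticks in the lowest row and the median of the other rows of the table (3.61) as a dashed line. The receptors lie between 4.79 and 5.71 and the transcription factors between 2.62 and 4.49, whereas the 75 genes span 0.38 to 8.96.

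Genes in shared positions and with shared domains were counted last. With neighbours at most 500000 bases apart, 52 of the 75 genes fell into 16 clusters. Within these, levels were closest in Ifi27 and Ifi27l2a (0.36 apart on the log2 scale) and in Gbp2, Gbp3 and Gbp7 (0.37), and farthest apart in the PYHIN cluster (5.95). These distances are not like measures, since a range tends to grow with the number of genes, and the PYHIN cluster holds 7. The 3 Gbp genes also lie in the lowest 10% of the table. There, a constant added before the logarithm, if there was one, would compress differences. All 9 rows annotated with the oligoadenylate synthetase C-terminal domain were among the 75, as were 6 of 9 rows with a HIN domain and 3 of 10 with the interferon-inducible GTPase domain. The other HIN rows were Mndal (5.08), which carried the interferon element, Aim2 (4.71), the DNA sensor of the inflammasome, which did not, and 1 assembled locus with no gene name (2.58). The annotated span of Mndal (chr1:173849126-173942491) ends beside the stretch printed for Ifi203 (chr1:173942498-173942547). The match of Mndal may therefore be the one already counted for Ifi203, which was not examined. Of the other GTPase-domain rows, Igtp (2.33), 9930111J21Rik1 (1.97), Tgtp2 (0.24) and Gm12185 (0.18) carried the element. KEGG pathways were given for 28 of the 75 genes, and 10 of these (35.7%) were in each of the Influenza A, Hepatitis C and NOD-like receptor pathways, against 2.45%, 2.36% and 2.86% of all 4610 annotated rows. The rule took family names and names of known interferon-stimulated genes. Shared domains and an excess in these pathways were therefore foreseeable, and these counts are a description with no test.

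GENCODE M21 lists 97 protein-coding genes that meet the naming rule, of which 73 were analysed, the other 2 of the 75 being the polymorphic pseudogenes. The 24 not analysed here included 5 of 10 Gbp genes (Gbp2b, Gbp4, Gbp5, Gbp6 and Gbp10), 3 of 11 Oas genes, 3 of 6 Ifit genes and the GTPase Iigp1. The levels above therefore describe the rows of the table and not every gene of each family.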

How the data were processed

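RNA from RAW264.7 cells (3 RANKL and 3 Ctrl samples, day 3) was poly(A)-selected, made into strand-specific libraries and sequenced as read pairs, per the labels. Going by the submitters' processing notes, the authors worked on mm10 and ran DESeq. Which aligner, counter, annotation and row filter they used is not given in the sources used here. In all, 1 annotated table of 11031 rows was deposited. Its mean FPKM column was used as the authors' value: the deposited values are on a log scale, read as log2 because their powers of 2 sum to 455332 and their powers of e to 6.97022e+06, with no value below 0. The 12 per-library columns of counts and FPKM match no sample label and were used in no step. A further 4 columns hold the authors' own comparison (fold change, p-value, adjusted p-value and direction) and were not used. The test planned for RANKL against Ctrl was therefore not run, and depth per sample is unknown.

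Genes were matched by symbol, by gene identifier to GENCODE M21 (GRCm38) and by Entrez identifier or symbol to RefSeq promoters (GRCm38.p6). The promoter table held no entry for 15 of the 75 genes: Ifi27, Ifi27l2a, Usp18, Parp9, Oas2, Rtp4, Ifi204, Dhx58, Parp14, Gbp8, Zbp1, Mx2, Oas1b, Gbp9 and Mx1. Motifs were scanned in Python 3.11.15 with pandas 2.3.3, numpy 2.4.6 and scipy 1.17.1, and the scan was tested on simulated sequences. Shared 50-base stretches were sampled every 5 bases. The genes named were the 10 highest and the 10 lowest by mean level and a list of well-known members, with the rest given under their role group. The genes, lists and role groups were chosen with earlier results of these data known. Of the pathway list, 1 gene is not reported here. Alternatives changed the list of genes, the rows it was set against, the spelling of the motif and the window.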

Additional observations from a re-analysis of the deposited data

How the results depend on the processing

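The median level of the interferon-stimulated genes was 2.95, and 3.29 without the near-identical families (50 genes), 3.28 for the genes named singly (21 genes) and 3.38 without genes that share 10% or more of their 50-base stretches (51 genes, an alternative chosen after seeing the data). Its percentile in the table was 35.4, and 42.6, 42.3 and 44.5 under the same alternatives, so it stayed below the middle under each. Among only the rows with a gene symbol and an Ensembl identifier the percentile was 34.5. The share of the genes with the interferon element was 51.7%, and 58.3% with a spacing of 2 or 3 bases, 45.0% in the 250 bases before the start and 31.7% with the second block followed by CT, which was chosen after seeing the data. The share of other promoters was 3.54%, and 5.91%, 2.96% and 0.252% under these alternatives and 3.99% over all genes of the promoter table. No paired analysis was possible because the columns per library carry no sample label. For the same reason the edgeR test, the DESeq2 alternatives, the fit with no filter on low counts, the fit that leaves out each replicate in turn and the replicate block were not run. The columns per library were used in no step, so only 1 mean per gene and no depth entered the results. The precision of a low level was therefore not assessed, and a RANKL effect is not given.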

Other observations

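The stricter spelling of the interferon element was also found in promoters of 22 other genes of the table. Several of these are interferon-stimulated genes, or relatives of such genes, that the naming rule did not take: Cxcl10, a chemokine that attracts T cells (deposited mean level 1.25), Apobec3, a cytidine deaminase that restricts retroviruses (3.53), Trim30a (3.68), Trim30d (0.30) and Trim34a (0.73), Parp11 (2.30), Ncoa7 (2.76), H2-T22, a nonclassical histocompatibility gene (3.87), Rbm43 (3.32), Fcgr4, an activating receptor for IgG (3.13), and 9930111J21Rik1, a GTPase of the immunity-related family (1.97). Others have other known roles and were among the highest of the 22: Eif2s1 (5.90), the subunit of the initiation factor that PKR phosphorylates, Wipf1 (5.43), which acts on actin, Gna13 (5.29), a G-protein subunit, and Atp6v1d (5.16), a subunit of the vacuolar proton pump that osteoclasts use to acidify bone. Eif2s1 and Atp6v1d start close together on opposite strands of chromosome 12, and the same match (chr12:78861860-78861871, GRCm38.p6) lies in both of their windows. Of the 22, 15 were at or below the median level of the table and 7 were above it. Trim30a was also on the list of pathway genes, and the other genes named here were chosen after their values were seen.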
